A study of Homo sapiens with 8 samples.

Results

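The 39 protein-coding HOX cluster genes were followed in NCI-H146 and NCI-H1688, 2 human small cell lung cancer lines by their labels. They were chosen by name alone, as every gene called HOX followed by a cluster letter from A to D and a number. NCI-H146 was tabulated as read counts for 17169 genes, of which 38 were HOX genes, and NCI-H1688 as TPM (a length-scaled transcript abundance) for 56981 gene names, of which 39 were. HOXB1 was not analysed in NCI-H146.

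Each line was wild type by its label, was grown in RPMI-1640 with 10% fetal bovine serum, and had been infected with a lentivirus for a short hairpin RNA (shRNA), which was a control sequence or was directed against the Krüppel-like transcription factor gene KLF9. All 4 groups were then selected with puromycin for 2 weeks, so the controls carry a lentivirus too and there were no uninfected cells. Each group held 2 libraries, control shRNA replicates 2 and 3 and KLF9 shRNA replicates 1 and 2 in NCI-H146, and replicates 1 and 2 of both groups in NCI-H1688. The labels call the replicates biological without saying whether infections or cultures were separate, so the p-values measure only the spread between these libraries, and whether a stable line came from a pool or a clone is not given in the sources used here.

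HOX genes encode homeodomain transcription factors that give cells of the embryo their place along the head-to-tail axis. They lie in 4 clusters, HOXA to HOXD, on different chromosomes, and are numbered from 1 to 13 by paralogue position, with low numbers used towards the head and high numbers towards the tail, the limb buds and the genital region. Polycomb proteins keep silent HOX genes shut, MLL-type methyltransferases keep active ones open, and retinoic acid induces the low-numbered end. In lung, genes of the front and middle of the HOXA and HOXB clusters, such as HOXA5, are the best known.

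KLF9 itself was measured at 67.0 and 61.9 CPM (counts scaled to the TMM-adjusted library total) in the NCI-H146 controls and at 24.9 and 32.3 CPM after KLF9 shRNA, and it fell by 1.17 on the log2 scale (edgeR adjusted p = 0.0131). Without control replicate 2 or 3 that call was lost, at a log2 fold change of -1.08 and -1.23 (edgeR adjusted p = 0.255 and 0.101). In NCI-H1688 it stood at 0.298 and 0.644 TPM in the controls but 1.95 and 1.60 TPM under the knockdown label, against that label (log2(TPM + 1) difference 0.92, limma adjusted p = 0.0952). Only gene names with a mean of at least 1 TPM were tested there. Both KLF9 controls lay below that level, so KLF9 passed through the labelled knockdown libraries alone. A rise was thus built into its being tested. With no such filter the difference was again 0.92 (limma adjusted p = 0.125). Directions given for NCI-H1688 follow the label, as libraries labelled KLF9 knockdown against controls. NCI-H146 libraries held 15406264 to 16109803 counts, of which 10315 to 14396 fell on HOX genes, and KLF9 shRNA replicate 1 had 8.56% mitochondrial counts against 0.897% to 1.20% in the other libraries. The labelled epithelial cell type was checked against its markers. NCI-H1688 expressed all 7 epithelial markers, with a summed level of 2002 to 3022 TPM, together with the squamous markers KRT5 and KRT14, while NCI-H146 had KRT8 and KRT18 at 78.3 to 193 CPM but EPCAM at 7.26 to 19.7 CPM and CDH1 at no more than 2.98 CPM and called higher after KLF9 shRNA (edgeR adjusted p = 0.0193). CDH1 in NCI-H146 had 7 and 14 control counts and 44 and 34 after KLF9 shRNA. It passed the filter on low counts through the KLF9 shRNA libraries, so its being tested favoured a rise. The neuroendocrine factor genes INSM1 and NEUROD1, which many small cell lung cancers express, were at 0 in NCI-H1688. NEUROD1 was at no more than 0.649 CPM in NCI-H146.

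In NCI-H146 controls the HOXC and HOXD clusters carried most of the HOX RNA, and the high-numbered genes stood above the rest. Levels were compared between genes per length, as CPM divided by exon length in kilobases. On that scale HOXC made up 41.6% ± 1.15 of the summed HOX level and HOXD 36.4% ± 0.206, with 12.4% ± 0.953 from HOXB and 9.69% ± 0.405 from HOXA (SD, n = 2). Positions 9 to 13 together held 74.5% ± 2.22 and positions 1 to 3 held 3.99% ± 0.757. HOXD13, which patterns digits and the genital region, was the highest HOX gene at 76.0 ± 2.27 CPM per kb, or 22.9% ± 0.956 of the sum. HOXC12 followed at 30.5 ± 6.57, HOXB9 at 28.4 ± 1.82, HOXC13, a hair and nail gene, at 24.4 ± 1.10, HOXC9, a gene of thoracic identity, at 23.1 ± 0.383 and HOXC6 at 20.7 ± 0.957 CPM per kb. The control ranges of HOXC12 and HOXB9 overlap, so these neighbours do not differ beyond their spread, and HOXC13 and HOXC9 are separated by little more than the SD of HOXC13. HOXD13 lies above all others by more than the spread between controls.

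The gradient towards the tail end was not uniform within clusters. HOXD12, between the highly expressed HOXD11 (12.7 ± 0.789 CPM per kb) and HOXD13, had only 3 and 7 counts in the controls. HOXB9 stood next to HOXB7 and HOXB8, which had 5 to 6 and 5 to 14 control counts. The 4 HOX genes left out of the test by the filter on low counts were HOXA2, HOXB2, HOXB7 and HOXB8, with at most 14 counts in any library. HOXA2 (13, 8, 5 and 4 counts in the libraries in the order control 2, control 3, KLF9 shRNA 1 and KLF9 shRNA 2) and HOXB8 (14, 5, 8 and 5 counts) exceeded 10 counts in a single library, control replicate 2. HOXB2 was listed at 0 in KLF9 shRNA replicate 1, where 3 counts, the limit that a count of 0 allows, would be 0.203 CPM.

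NCI-H1688 controls had another HOX profile. HOXA made up 57.0% ± 1.92 of the summed HOX TPM, HOXC 31.8% ± 0.539 and HOXB 11.1% ± 1.33, while HOXD gave 0.0400% ± 0.0566 (SD, n = 2). HOXA3, which in mouse is needed for the thymus and parathyroid, was highest at 20.2 ± 1.68 TPM and held 24.7% ± 1.07 of the sum. HOXC10, a hindlimb and lumbar gene, came second at 12.8 ± 1.01 TPM. Next were HOXA10 at 5.92 ± 1.40, HOXB7 at 5.88 ± 1.11, HOXC9 at 5.15 ± 0.680 and HOXA11 at 5.10 ± 0.239 TPM, and these 4 do not differ beyond their spread. Positions 1 to 3 held 31.0% ± 1.26 of the sum and positions 9 to 13 held 46.8% ± 2.80.

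All 9 HOXD genes were below the filter of a mean of 1 TPM in NCI-H1688, and HOXD3, HOXD8, HOXD10 and HOXD12 were listed at 0 in all 4 libraries. The highest HOXD value in any library was 0.152 TPM, for HOXD11 in replicate 2 labelled KLF9 knockdown. HOXB1, HOXB2 and HOXC12 were also listed at 0 throughout, and a further 16 HOX genes had low values, none above 0.980 TPM in any library, so 16 of 39 were tested. HOXC12 was thus listed at 0 in this line while being the second HOX gene by level in NCI-H146, where it had 1280 and 1986 control counts. HOXB7 went the other way, with 5.10 and 6.67 TPM in the NCI-H1688 controls and 5 and 6 counts in those of NCI-H146. No level was tested between the lines, because their tables have different units and were normalized separately. The grid of control levels shows both profiles side by side.

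**Figure D1:**
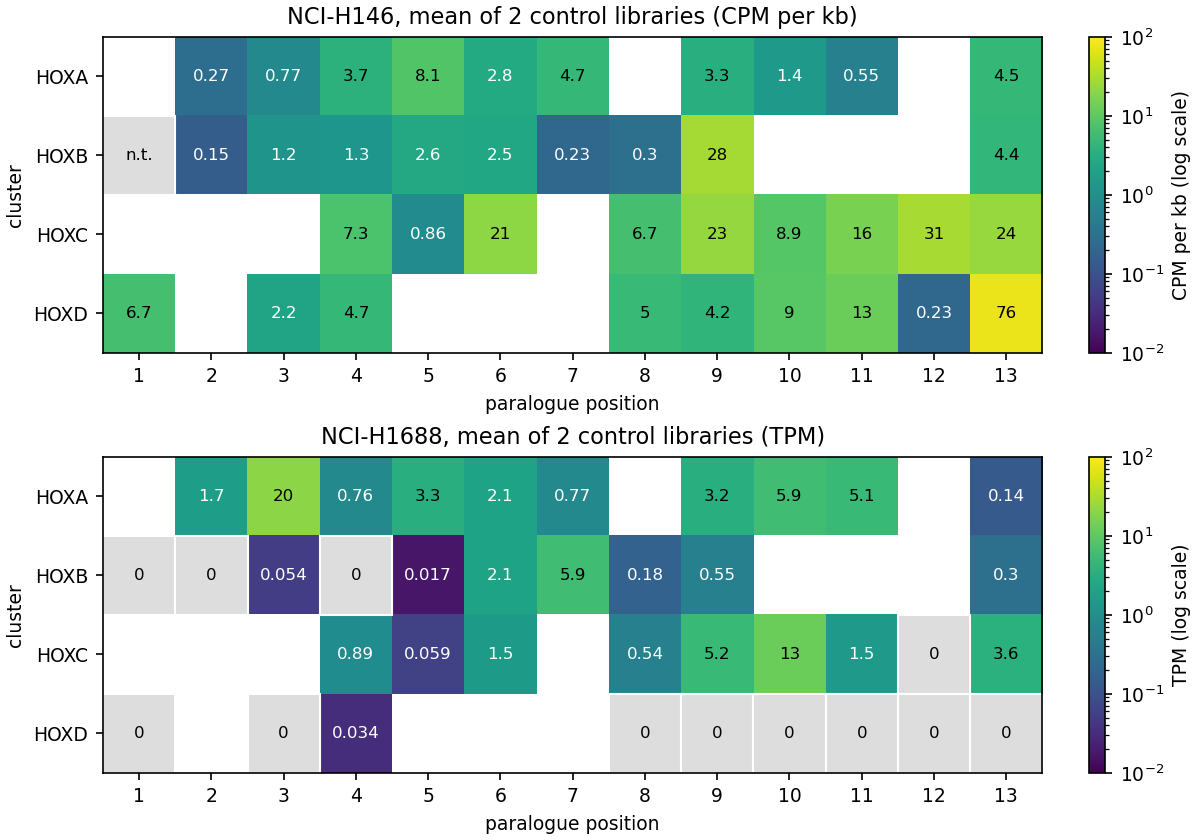
Mean level of the HOX genes shown over the 2 control libraries of each line, by cluster (rows) and paralogue position (columns), on a logarithmic colour scale, in CPM per kb of exon for NCI-H146 and TPM for NCI-H1688. White cells have no value shown, and grey cells are listed at 0 or, for HOXB1 in NCI-H146 (n.t.), not analysed. HOXD is filled in NCI-H146, up to 76.0 CPM per kb for HOXD13, and nearly empty in NCI-H1688, where HOXA3 is highest at 20.2 TPM.

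The promoter windows are printed for 4 genes that are described in the results below. HOXA4 and HOXC4 are genes of position 4 that fell in NCI-H146, HOXD4 is their paralogue that was tested without a call, and HOXD13 is the highest HOX gene of that line. Each window runs from 250 bases before to 50 bases after the RefSeq start (GRCh38.p14), in the direction of the gene, and capitals mark CACCC or its reverse complement GGGTG, the core of the box that Krüppel-like factors bind. HOXA4 lies at chr7:27130708-27131007 on the minus strand, HOXC4 at chr12:54016638-54016937 on the plus strand, HOXD4 at chr2:176151300-176151599 on the plus strand and HOXD13 at chr2:176092471-176092770 on the plus strand.
HOXA4: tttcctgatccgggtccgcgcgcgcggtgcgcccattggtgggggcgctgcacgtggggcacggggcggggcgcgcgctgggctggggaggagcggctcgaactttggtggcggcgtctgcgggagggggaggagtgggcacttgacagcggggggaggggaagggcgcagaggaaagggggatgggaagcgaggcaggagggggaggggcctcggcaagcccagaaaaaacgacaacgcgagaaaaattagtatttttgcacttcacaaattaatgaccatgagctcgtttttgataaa
HOXC4: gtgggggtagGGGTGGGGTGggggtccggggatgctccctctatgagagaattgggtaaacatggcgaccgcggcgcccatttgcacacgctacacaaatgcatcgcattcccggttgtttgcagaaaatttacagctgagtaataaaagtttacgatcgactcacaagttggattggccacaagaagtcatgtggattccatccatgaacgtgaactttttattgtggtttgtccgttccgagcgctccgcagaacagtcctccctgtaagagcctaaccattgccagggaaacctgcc
HOXD4: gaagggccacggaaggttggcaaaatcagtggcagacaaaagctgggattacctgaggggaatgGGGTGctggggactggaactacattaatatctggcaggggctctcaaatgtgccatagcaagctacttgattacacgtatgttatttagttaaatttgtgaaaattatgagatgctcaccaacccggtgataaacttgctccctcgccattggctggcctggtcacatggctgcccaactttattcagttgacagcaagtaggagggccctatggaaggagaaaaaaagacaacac
HOXD13: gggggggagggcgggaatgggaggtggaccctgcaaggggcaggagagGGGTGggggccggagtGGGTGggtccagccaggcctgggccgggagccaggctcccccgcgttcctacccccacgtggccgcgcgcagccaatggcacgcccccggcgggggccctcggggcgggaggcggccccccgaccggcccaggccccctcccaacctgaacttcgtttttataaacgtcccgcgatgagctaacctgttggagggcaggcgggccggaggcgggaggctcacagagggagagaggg

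CACCC or GGGTG was found 2 times in the HOXC4 and HOXD13 windows, once in that of HOXD4 and not in that of HOXA4. Over all 35116 RefSeq windows of the same length 59.9% held it, and 11 of 27 windows of the 20 HOX genes with an entry did (40.7%). HOXA3 has 7 windows, of which 2 hold the motif. The HOXC5 entry gives the same window as HOXC4. The GC box GGGCGG or its reverse complement CCGCCC, which can overlap GGGTG or CACCC by shared end bases, was found in 13 of the 27 HOX windows against 45.0% of all windows, and TTTATG or CATAAA, a core bound by caudal-type factors, in 3 of 27 against 10.6%. The median ratio of observed to expected CpG was 0.849 in HOX windows and 0.579 in all. These matches describe the letters of the windows only.

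After KLF9 shRNA in NCI-H146, HOXA3, HOXA4 and HOXC4 fell and no HOX gene rose, of 34 tested. These 3 called genes are 8.82% of the 34, against 17.1% called among the 13129 genes tested, with 9.12% called lower and 8.01% called higher. With DESeq2 size factors in edgeR HOXD12 was called higher as well (adjusted p = 0.0484), and limma-voom also called HOXC5 lower (adjusted p = 0.0431). An unadjusted p under 0.05 was reached by 11 HOX genes, or 32.4% (33.6% of all genes), and the groups did not overlap for 22, or 64.7% (62.5% of all genes). Of these, 16 lay lower and 6 higher, beside 31.9% and 30.6% of all genes. The median log2 fold change of the 34 was -0.21, beside 0.01 for all genes, with 23 lower and 11 higher. In bulk RNA, fewer cells that express a gene and less of its RNA per cell cannot be told apart. The plot of NCI-H146 libraries shows the genes by library.

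**Figure D2:**
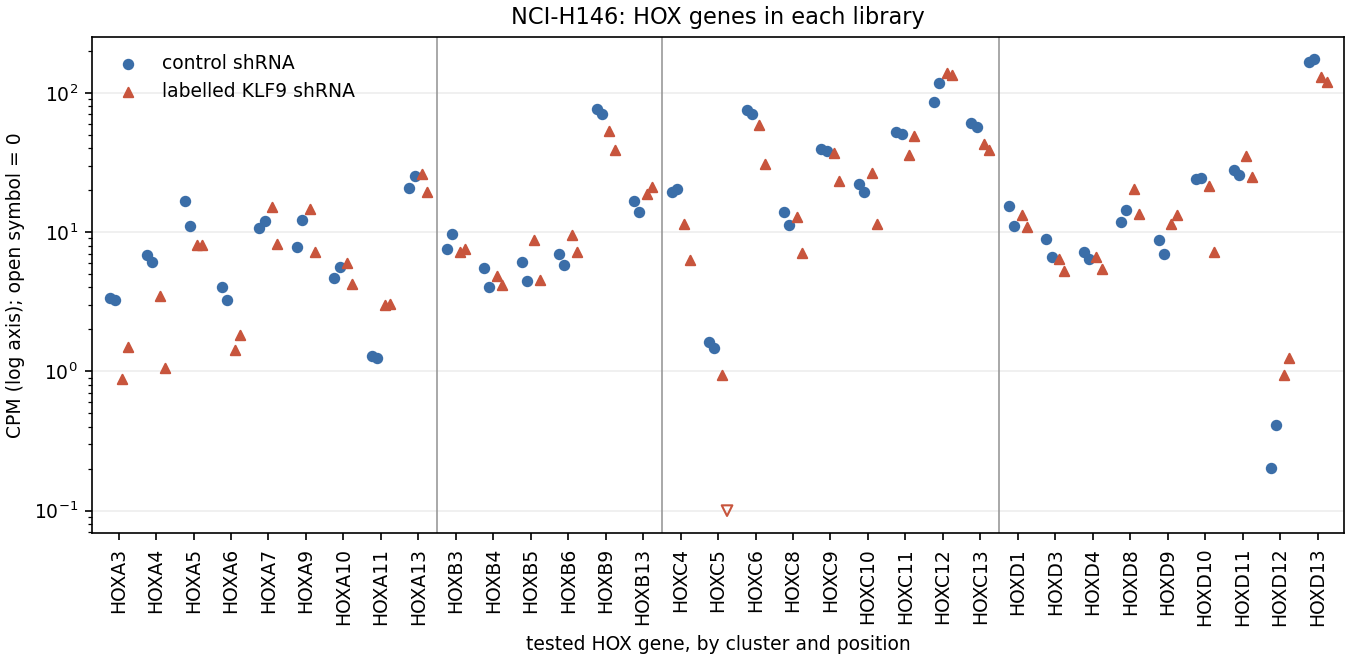
Level of 33 tested HOX genes in the 4 NCI-H146 libraries, in CPM on a logarithmic axis, with circles for control shRNA and triangles for KLF9 shRNA. Genes are ordered by cluster and position, and the open symbol is HOXC5 at 0. HOXA3 to HOXA6 and HOXC4 to HOXC6 have both triangles below both circles. So do HOXB3, HOXB9, HOXC9, HOXC11, HOXC13, HOXD3, HOXD10 and HOXD13. Both lie above in HOXA11, HOXB6, HOXB13, HOXC12, HOXD9 and HOXD12. Groups did not overlap for 64.7% of tested HOX genes and 62.5% of all genes.

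HOXA3 to HOXA6 were lower in every comparison of single libraries. HOXA3 (chromosome 7, 27106184 to 27152581, GENCODE 29 on GRCh38, minus strand) measured 3.37 and 3.25 CPM in the controls and 0.880 and 1.50 CPM after KLF9 shRNA, from 50, 55, 13 and 24 counts. It fell by 1.46 on the log2 scale (SE 0.460, edgeR adjusted p = 0.0394), to 0.359 times its control mean. HOXA4 (chromosome 7, 27128507 to 27130799, minus strand), a gene of the neck vertebrae in mouse, measured 6.87 and 6.08 CPM in the controls and 3.45 and 1.06 CPM after KLF9 shRNA, from 102, 103, 51 and 17 counts. It fell by 1.53 on the log2 scale (SE 0.473, edgeR adjusted p = 0.0380), with replicate 2 well below replicate 1. HOXA5, which in mouse is needed for the airways, measured 16.8 and 11.0 CPM in the controls and 8.06 and 8.11 CPM after KLF9 shRNA (log2 fold change -0.78, edgeR adjusted p = 0.120). HOXA6 measured 4.04 and 3.25 CPM in the controls and 1.42 and 1.81 CPM after KLF9 shRNA (log2 fold change -1.17, edgeR adjusted p = 0.0716). HOXA5 and HOXA6 were thus lower in both libraries without passing the test. Exons of HOXA4 share 31.0% of their bases with an unnamed gene on the same strand and 16.3% with antisense RNAs on the other, and 9.24% and 15.4% of HOXA3 are shared in the same way, so reads there could be divided between genes.

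From position 7 on, the HOXA genes had overlapping groups, except for HOXA11. HOXA7 measured 10.7 and 11.9 CPM in the controls and 15.0 and 8.24 CPM after KLF9 shRNA. HOXA9, a gene overexpressed in many leukaemias, measured 7.82 and 12.3 CPM in the controls and 14.6 and 7.18 CPM after KLF9 shRNA. HOXA10, a uterus and hindlimb gene, measured 4.72 and 5.61 CPM in the controls and 5.96 and 4.24 CPM after KLF9 shRNA. In these 3 genes KLF9 shRNA replicate 1 lay above both controls and replicate 2 below both. HOXA13, a digit and genital gene, measured 20.8 and 25.3 CPM in the controls and 26.3 and 19.5 CPM after KLF9 shRNA, with the same split. HOXA11, which patterns the forearm and the uterus, measured 1.28 and 1.24 CPM in the controls and 2.98 and 3.06 CPM after KLF9 shRNA, from 19, 21, 44 and 49 counts (log2 fold change 1.26, SE 0.445, edgeR adjusted p = 0.0601). It was the only tested HOXA gene above both controls in both KLF9 shRNA libraries, and it did not pass.

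The division of HOXA into positions 3 to 6 and 7 to 13 was chosen after its values were seen. The 4 genes of HOXA3 to HOXA6 had a median log2 fold change of -1.31 and those of HOXA7 to HOXA13 of 0.04. The first median was -1.06 without KLF9 shRNA replicate 1 and -1.12 without replicate 2, and the second was -0.27 and 0.41. Across the 10 tested HOXA genes Spearman's rank correlation between position and log2 fold change was 0.81. It was 0.70 over 9 HOXC genes, 0.43 over 6 HOXB genes, 0.07 over 9 HOXD genes and 0.45 over all 34. HOXC5 and HOXD12, the genes with the lowest and the highest fold change, each passed the filter through 1 group alone, which fixed their direction. Without them it was 0.60 over 8 HOXC genes, -0.17 over 8 HOXD genes and 0.41 over 32, a choice made after seeing the data. In NCI-H1688 it ran the other way, at -0.64 over 8 HOXA genes and -0.21 over 16 HOX genes. It was -0.03 over 6 HOXC genes, among them HOXC4, whose direction there was fixed by the filter. All these correlations are descriptions, because the genes share the same 4 libraries and neighbours share exons. By the classes of position used here, the medians were -0.42 for 5 genes of positions 1 to 3, -0.33 for 13 of positions 4 to 8 and -0.02 for 16 of positions 9 to 13, with 1, 2 and 0 called lower.

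**Figure D3:**
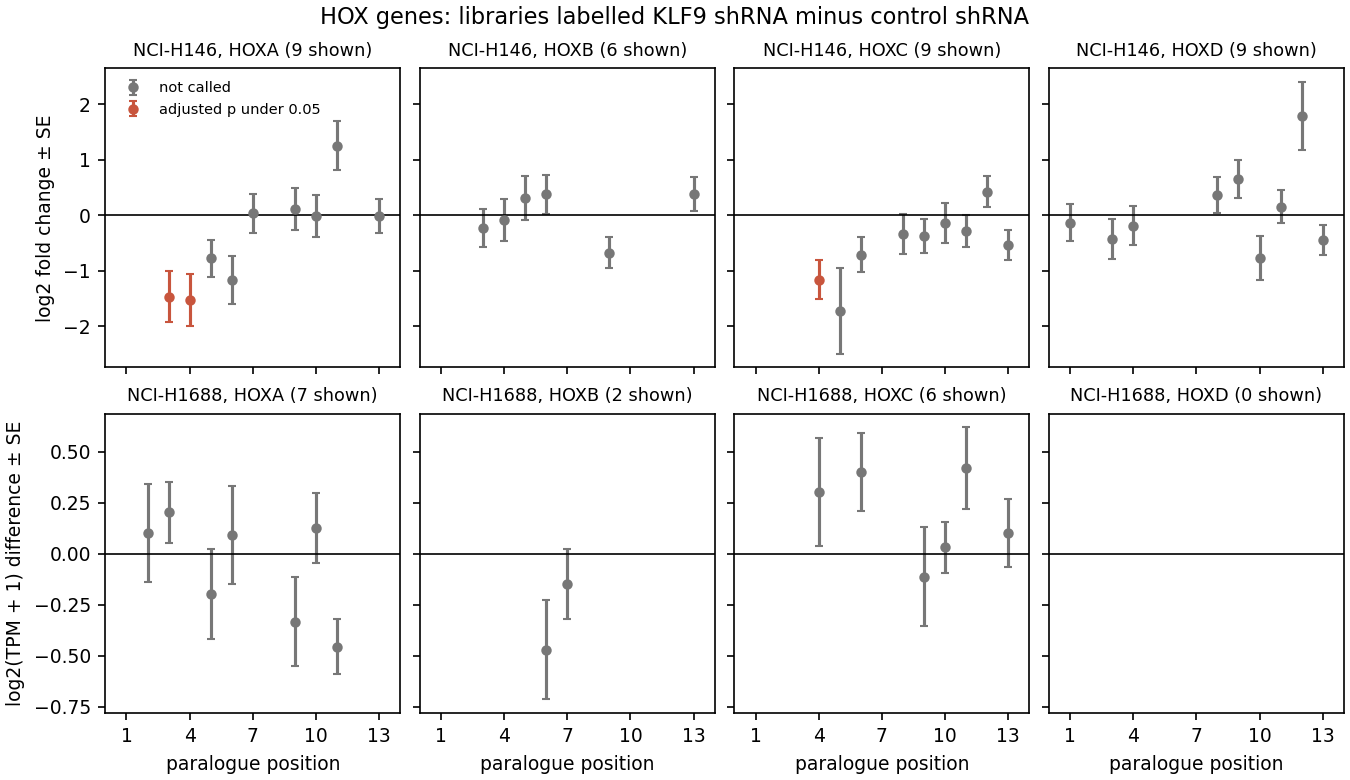
Difference between libraries labelled KLF9 shRNA and control shRNA for the tested HOX genes shown, by cluster and paralogue position, with SE bars. The upper row is NCI-H146 (log2 fold change, edgeR) and the lower row NCI-H1688 (difference of log2(TPM + 1), limma), each row with its own axis, and red points have an adjusted p under 0.05. The called genes are HOXA3, HOXA4 and HOXC4 in NCI-H146, and no gene is called in NCI-H1688.

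In HOXC the lowest values again lay at the low-numbered end. HOXC4 (chromosome 12, 54016931 to 54056030, plus strand), which takes part in antibody gene diversification in mouse B cells, measured 19.4 and 20.3 CPM in the controls and 11.5 and 6.30 CPM after KLF9 shRNA, from 288, 344, 170 and 101 counts. It fell by 1.16 on the log2 scale (SE 0.345, edgeR adjusted p = 0.0320), to 0.449 times its control mean. HOXC5 measured 1.62 and 1.48 CPM in the controls, 0.948 CPM in KLF9 shRNA replicate 1 and 0 in replicate 2, where 3 counts would be 0.187 CPM (log2 fold change -1.72, edgeR adjusted p = 0.126). It passed the filter through the controls alone. HOXC6 measured 75.7 and 70.9 CPM in the controls and 58.8 and 30.8 CPM after KLF9 shRNA (log2 fold change -0.71, edgeR adjusted p = 0.121). The 3 genes share a transcription unit, so they are not independent measurements. On the same strand 17.8% of HOXC4 exon bases and 15.7% of those of HOXC6 are shared with neighbours, among them each other. For HOXC5 it is 59.9%, shared with an unnamed gene and with another entry that is also named HOXC5.

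Further along HOXC the differences were smaller and none passed. HOXC8, a thoracic gene, measured 14.01 and 11.2 CPM in the controls and 12.9 and 7.11 CPM after KLF9 shRNA. HOXC9 measured 39.2 and 38.3 CPM in the controls and 36.7 and 23.1 CPM after KLF9 shRNA. HOXC10 measured 22.0 and 19.4 CPM in the controls and 26.4 and 11.4 CPM after KLF9 shRNA, so that its KLF9 shRNA libraries lay on either side of the controls. HOXC11, a hindlimb gene, measured 51.9 and 50.7 CPM in the controls and 35.5 and 48.6 CPM after KLF9 shRNA. HOXC12 measured 86.2 and 117 CPM in the controls and 138 and 135 CPM after KLF9 shRNA, the only HOXC gene above both controls (log2 fold change 0.42, edgeR adjusted p = 0.296). HOXC13 measured 60.9 and 57.1 CPM in the controls and 42.6 and 38.7 CPM after KLF9 shRNA, which is lower in both libraries without passing (log2 fold change -0.54, edgeR adjusted p = 0.174).

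HOXB and HOXD had no called gene. HOXB9 measured 76.7 and 70.1 CPM in the controls and 53.3 and 38.9 CPM after KLF9 shRNA (log2 fold change -0.67, edgeR adjusted p = 0.105). HOXB13, a prostate and distal colon gene, measured 16.6 and 13.99 CPM in the controls and 18.8 and 21.1 CPM after KLF9 shRNA. HOXB6 measured 7.01 and 5.84 CPM in the controls and 9.48 and 7.18 CPM after KLF9 shRNA. These last 2 genes lay above the controls in both libraries, by less than the test requires (edgeR adjusted p = 0.395 and 0.482). HOXB3 measured 7.61 and 9.74 CPM in the controls and 7.25 and 7.55 CPM after KLF9 shRNA. HOXB4, which promotes blood stem cell expansion, measured 5.52 and 4.01 CPM in the controls and 4.81 and 4.18 CPM after KLF9 shRNA. HOXB5 measured 6.13 and 4.49 CPM in the controls and 8.73 and 4.49 CPM after KLF9 shRNA. For HOXB4 and HOXB5 the groups overlap, and HOXB3 lay just below its controls.

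Among HOXD genes the highest and the lowest lay in opposite directions from the controls. HOXD13 (chromosome 2, 176092891 to 176095938, plus strand) measured 167 and 174 CPM in the controls and 131 and 120 CPM after KLF9 shRNA (log2 fold change -0.44, SE 0.270, edgeR adjusted p = 0.264). HOXD12, its neighbour, measured 0.202 and 0.413 CPM in the controls and 0.948 and 1.25 CPM after KLF9 shRNA, from 3, 7, 14 and 20 counts (log2 fold change 1.79, SE 0.612, edgeR adjusted p = 0.0534). HOXD12 passed the filter through the KLF9 shRNA libraries alone, so a difference in that direction was built into its being tested. HOXD11 measured 28.0 and 25.7 CPM in the controls and 35.1 and 24.7 CPM after KLF9 shRNA. HOXD10, a hindlimb and lumbar gene, measured 24.2 and 24.4 CPM in the controls and 21.4 and 7.24 CPM after KLF9 shRNA, with nearly all of the difference in replicate 2. HOXD9 measured 8.76 and 6.91 CPM in the controls and 11.4 and 13.2 CPM after KLF9 shRNA (log2 fold change 0.65, edgeR adjusted p = 0.180).

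The remaining HOXD genes were not called either. HOXD8 measured 11.7 and 14.3 CPM in the controls and 20.3 and 13.4 CPM after KLF9 shRNA. HOXD4, the paralogue of HOXA4 and HOXC4 whose window is printed above, measured 7.21 and 6.43 CPM in the controls and 6.57 and 5.43 CPM after KLF9 shRNA (log2 fold change -0.19, SE 0.355, edgeR adjusted p = 0.746). Of the 4 genes of position 4, HOXA4 and HOXC4 thus fell, and the groups of HOXB4 and HOXD4 overlap, a difference between paralogues that was not tested. HOXD3 measured 8.96 and 6.61 CPM in the controls and 6.36 and 5.24 CPM after KLF9 shRNA. It was lower in both libraries without passing (log2 fold change -0.42, edgeR adjusted p = 0.430). HOXD1 measured 15.4 and 11.1 CPM in the controls and 13.3 and 10.9 CPM after KLF9 shRNA. Exons of HOXD3 and HOXD4 share 62.2% and 80.5% of their bases with an unnamed gene on the same strand, and 58.1% of HOXD1 lies opposite HAGLR and another antisense RNA.

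The KLF9 shRNA libraries of NCI-H146 differed from each other more than the controls did, in HOX genes as in all genes. The median absolute log2 ratio between them was 0.45 for HOX genes and 0.40 for all genes, and between the controls 0.25 for both. Over the 33 tested HOX genes with counts in both, the median signed log2 ratio of replicate 2 to replicate 1 was -0.40, with 24 lower, while over all genes it was 0.03. Between the controls the median was -0.11. The calls of HOXA3, HOXA4 and HOXC4 depended on which libraries were kept. Without control replicate 2 or control replicate 3 no HOX gene was called by edgeR, with 3 or 8 at an unadjusted p under 0.05, and 51 or 537 of all genes were called. The log2 fold changes were then -1.40 and -1.49 for HOXA3, -1.39 and -1.61 for HOXA4 and -1.15 and -1.13 for HOXC4, close to those with all libraries. Without KLF9 shRNA replicate 1, the library with 8.56% mitochondrial counts, 11 HOX genes were called, 10 of them lower, among them HOXA4 and HOXC4 to HOXC6, while calls over all genes went up to 5026 of 13547. Without KLF9 shRNA replicate 2 only HOXA3 was called. Leaving out KLF9 shRNA replicate 1 or 2 moved HOXA3 to -1.12 and -1.90, HOXA4 to -2.59 and -0.90 and HOXC4 to -1.64 and -0.78. With no filter on low counts HOXA3 and HOXA4 missed the threshold (edgeR adjusted p = 0.0553 and 0.0524) at log2 fold changes of -1.46 and -1.52, and with DESeq2 HOXA3 did (adjusted p = 0.0740) at -1.45. The part of the mitochondrial share in these results was not tested, beyond that leaving the mitochondrial genes out of the totals gave the same 3 calls.

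The cluster shares moved by about 1 percentage point or less after KLF9 shRNA. The summed HOX level per length was 335 and 329 CPM per kb in the controls and 307 and 245 CPM per kb after KLF9 shRNA, lower in both libraries. HOXC went from 41.6% ± 1.15 to 42.7% ± 0.0694 of the sum, HOXD from 36.4% ± 0.206 to 36.7% ± 0.983, HOXB from 12.4% ± 0.953 to 11.8% ± 0.169 and HOXA from 9.69% ± 0.405 to 8.69% ± 0.744. On this scale HOXA was lower in both KLF9 shRNA libraries than in both controls, at 9.21% and 8.16% against 9.98% and 9.41%. HOXC was higher in both, at 42.79% and 42.69% against 40.8% and 42.4%. With lengths of the longest coding transcript HOXA was still lower in both, at 9.82% and 8.75% against 10.3% and 9.96%. The HOXC groups then overlapped, at 42.1% and 41.9% against 41.0% and 42.4%. With 2 libraries against 2 an exact permutation test of a single share could not go below p = 0.333. The plot of cluster shares gives each library.

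**Figure D4:**
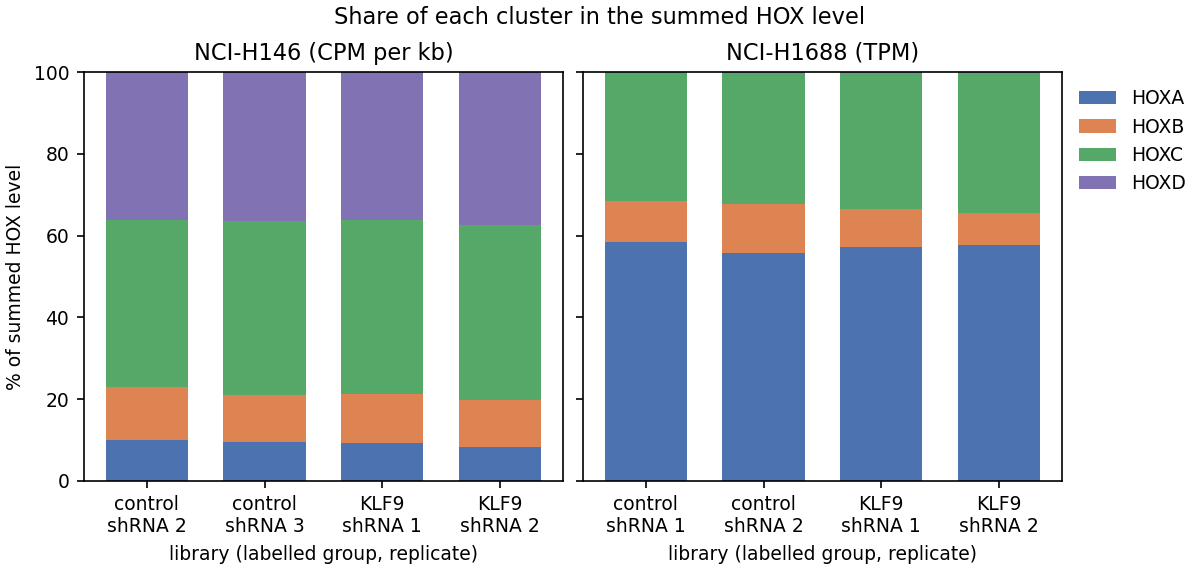
Share of each cluster in the summed HOX level of every library, in percent of CPM per kb for NCI-H146 (left) and of TPM for NCI-H1688 (right). HOXC and HOXD dominate NCI-H146, at 41.6% and 36.4% of the control sum, HOXA dominates NCI-H1688 at 57.0%, and the HOXD share there is too thin to be seen.

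In NCI-H1688 no HOX gene was called in the libraries labelled KLF9 knockdown, of 16 tested (limma, 16.0% of 14754 genes called, 9.67% lower and 6.36% higher). A single HOX gene, HOXA11, had an unadjusted p under 0.05 (34.0% of all genes did), and groups did not overlap for 6 of 16, or 37.5% (62.7% of all genes). The count was also 0 under every other setting tried in this line. The median difference of log2(TPM + 1) was 0.10 over the 16 genes, beside -0.02 over all, with 10 higher and 6 lower. On this scale the change of genes near 1 TPM is understated.

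HOXA genes were the best measured in this line. HOXA3 measured 19.0 and 21.4 TPM in the controls and 20.4 and 26.8 TPM in the labelled knockdown libraries. HOXA11 measured 5.27 and 4.93 TPM in the controls and 3.62 and 3.29 TPM in those libraries (log2(TPM + 1) difference -0.46, SE 0.135, limma adjusted p = 0.0913). HOXA9 measured 3.80 and 2.67 TPM in the controls and 2.61 and 2.08 TPM in those libraries (difference -0.33, limma adjusted p = 0.353). HOXA9 and HOXA11 were below both controls without passing, and in HOXA3 the groups overlap. HOXA2, a hindbrain gene that had too few counts to test in NCI-H146, measured 1.33 and 2.13 TPM in the controls and 2.00 and 1.81 TPM in those libraries. HOXA5 measured 2.70 and 3.97 TPM in the controls and 3.05 and 2.46 TPM in those libraries. The groups of both genes overlap too. HOXA6 measured 2.43 and 1.74 TPM in the controls and 1.87 and 2.70 TPM in those libraries. HOXA10 measured 6.91 and 4.92 TPM in the controls and 6.50 and 6.45 TPM in those libraries, again within the range of the controls.

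HOXC genes of NCI-H1688 lay slightly higher at several positions. HOXC4 measured 0.925 and 0.846 TPM in the controls and 1.61 and 1.07 TPM in the labelled knockdown libraries (difference 0.30, limma adjusted p = 0.473). HOXC6 measured 1.49 and 1.57 TPM in the controls and 2.39 and 2.29 TPM in those libraries (difference 0.40, limma adjusted p = 0.221). HOXC11 measured 1.42 and 1.49 TPM in the controls and 2.48 and 2.10 TPM in those libraries (difference 0.42, limma adjusted p = 0.223). The groups of these 3 genes do not overlap, at levels near the filter of 1 TPM, and none passed. HOXC4, with both controls below that level, passed the filter through the labelled knockdown libraries alone, so its direction was built into its being tested. HOXC9 measured 4.67 and 5.63 TPM in the controls and 3.62 and 5.99 TPM in those libraries. HOXC10 measured 12.1 and 13.5 TPM in the controls and 11.9 and 14.4 TPM in those libraries. HOXC13 measured 3.82 and 3.38 TPM in the controls and 3.51 and 4.40 TPM in those libraries. In each of these last 3 the groups overlap. HOXB6 measured 1.94 and 2.28 TPM in the controls and 0.971 and 1.55 TPM in those libraries (difference -0.47, limma adjusted p = 0.253). HOXB7 measured 5.10 and 6.67 TPM in the controls and 5.63 and 4.74 TPM in those libraries, with overlapping groups. The HOXB share of the HOX sum was 10.2% and 12.0% in control libraries against 9.20% and 7.89% under the knockdown label, lower in both, a difference whose exact permutation p cannot go below 0.333.

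**Figure D5:**
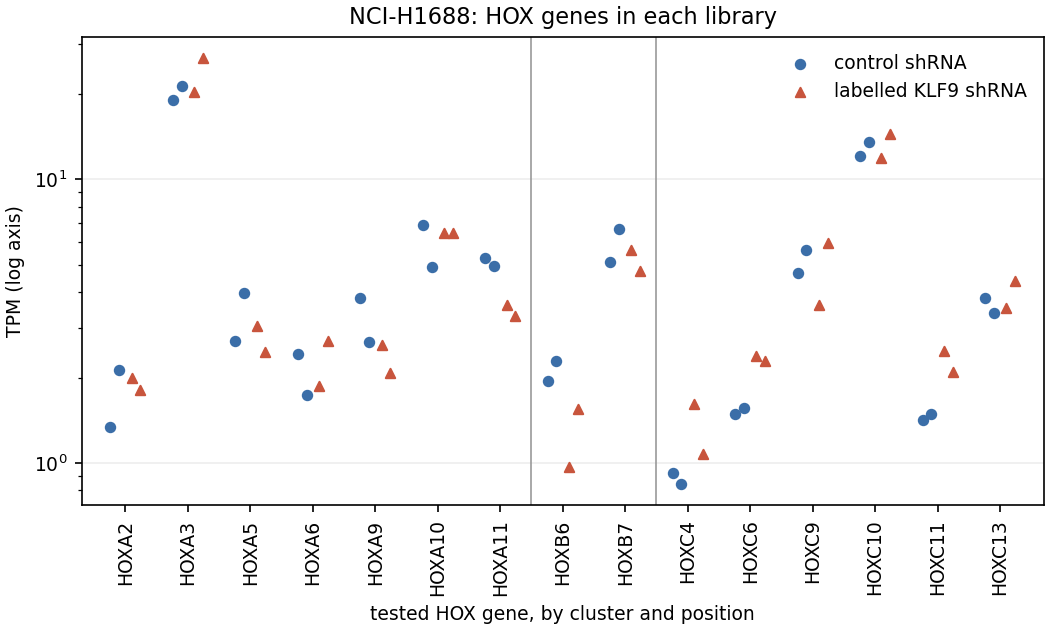
Level of 15 tested HOX genes in the 4 NCI-H1688 libraries, in TPM on a logarithmic axis, with circles for control shRNA and triangles for libraries labelled KLF9 shRNA. HOXA3 is the highest gene at 19.0 to 26.8 TPM, HOXA9, HOXA11 and HOXB6 have both triangles below the circles, and HOXC4, HOXC6 and HOXC11 both above.

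Of 14 HOX genes tested in both lines, none lay outside the range of its controls in the same direction in both, and 5 did so in opposite directions. Over all 10773 genes tested in both lines these shares were 15.9% and 26.3%. HOXC4, the gene that fell in NCI-H146 with the lowest adjusted p, had its labelled knockdown libraries above the controls in NCI-H1688. The filter fixed that direction, because both of those controls lay below 1 TPM. HOXA3, the highest HOX gene of NCI-H1688, fell in NCI-H146 and not in NCI-H1688. HOXA4 was below the filter in NCI-H1688, at 0.686 and 0.837 TPM in the controls and 0.929 and 0.835 TPM in the labelled knockdown libraries. The difference between lines was not tested, and since KLF9 RNA went down in one line and not in the other, the lines do not compare the same change of KLF9.

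Noncoding RNAs of the clusters were described as a group beside the coding genes. Of 9 tested in NCI-H146, 1 rose and 0 fell, and of 6 tested in NCI-H1688 none was called, beside 17.1% and 16.0% of all genes called. The same shares stand beside the counts of the lists that follow, with 8.01% higher and 9.12% lower in NCI-H146 and 6.36% higher and 9.67% lower in NCI-H1688. HOXA11-AS, the antisense partner of HOXA11, measured 0.539 and 0.708 CPM in the NCI-H146 controls and 2.23 and 2.31 CPM after KLF9 shRNA, and it rose by 1.85 on the log2 scale (edgeR adjusted p = 0.0220) from 8 and 12 counts to 33 and 37. HOXA11-AS passed the filter on low counts through the KLF9 shRNA libraries, as control replicate 2 was too low, so its being tested favoured a rise. HOXA11 and HOXA11-AS were both higher in NCI-H146. Since 31.1% of HOXA11 exon bases lie opposite HOXA11-AS, their reads cannot be told apart without knowing whether counting used strand. HOTAIRM1, a HOXA RNA, measured 1.82 and 1.48 CPM in the NCI-H146 controls and 0.609 and 0.749 CPM after KLF9 shRNA (log2 fold change -1.26, edgeR adjusted p = 0.0957). These were 27 and 25 control counts and 9 and 12 after KLF9 shRNA. It passed the filter on low counts through the controls, as KLF9 shRNA replicate 1 was too low, so its being tested favoured a fall. In NCI-H1688 HOTAIRM1 was among the highest RNAs of the clusters, at 56.0 and 63.3 TPM in the controls and 47.4 and 47.9 TPM in the labelled knockdown libraries (difference -0.32, limma adjusted p = 0.0658). HOTAIR, a HOXC RNA, measured 11.4 and 18.7 CPM in the NCI-H146 controls and 33.7 and 19.3 CPM after KLF9 shRNA (log2 fold change 0.82, edgeR adjusted p = 0.111), and at most 0.749 TPM in NCI-H1688.

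Genes that flank the clusters were counted in the same way. In NCI-H146 3 rose and 5 fell of 19 tested, and in NCI-H1688 1 rose and 2 fell of 17, where 17.1% and 16.0% of all genes were called. The transcription factor gene ATF2, beside HOXD, fell from 59.8 ± 1.72 to 26.2 ± 1.10 CPM in NCI-H146 (SD, n = 2 each; edgeR adjusted p = 0.0114). SKAP2, beside HOXA, fell from 15.0 ± 1.80 to 6.83 ± 0.754 CPM (edgeR adjusted p = 0.0294). ATP5MC1, an ATP synthase gene beside HOXB, rose from 38.4 ± 2.62 to 101 ± 49.7 CPM (edgeR adjusted p = 0.0117), with replicate 2 at 136 and replicate 1 at 65.8 CPM. In NCI-H1688 ATP5MC1 fell from 287 ± 31.3 to 211 ± 0.296 TPM (limma adjusted p = 0.0391). LNPK, an endoplasmic reticulum gene beside HOXD, fell in both lines, from 55.5 ± 5.80 to 28.5 ± 3.82 CPM (edgeR adjusted p = 0.0307) and from 16.5 ± 2.13 to 10.8 ± 0.152 TPM (limma adjusted p = 0.0406). CALCOCO1 rose in NCI-H1688, from 18.5 ± 2.15 to 29.2 ± 1.67 TPM (limma adjusted p = 0.0277).

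HOX proteins bind DNA together with PBX and MEIS cofactors. Of 11 cofactor genes tested in NCI-H146, PBX3 alone was called and fell from 19.8 ± 2.02 to 8.19 ± 2.59 CPM (SD, n = 2 each; edgeR adjusted p = 0.0188). Of 9 tested in NCI-H1688, 3 rose and 0 fell, beside 6.36% and 9.67% of all genes in that line and 17.1% called in NCI-H146. TGIF1, which competes with MEIS proteins for related sites, rose from 52.3 ± 4.16 to 81.4 ± 5.49 TPM (limma adjusted p = 0.0194) and MEIS1 from 3.60 ± 0.0487 to 8.55 ± 2.75 TPM (limma adjusted p = 0.0483).

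The regulators that keep HOX clusters silent or active were also counted. Of 30 Polycomb genes tested in NCI-H146, 1 rose and 5 fell, beside 8.01% and 9.12% of all genes, with a median log2 fold change of 0.04. RYBP, a subunit of variant Polycomb complexes, fell from 25.7 ± 1.20 to 5.89 ± 2.498 CPM (edgeR adjusted p = 0.00227). PHC3 fell from 71.7 ± 8.24 to 25.2 ± 5.50 CPM (edgeR adjusted p = 0.00476). In NCI-H1688 0 rose and 1 fell of 30, PCGF6, from 10.3 ± 0.591 to 5.91 ± 0.694 TPM (limma adjusted p = 0.0292). Of 20 activators of HOX chromatin, 2 fell in NCI-H146 and 0 rose, with a median of -0.50. KDM6B, which removes the Polycomb mark, fell from 133 ± 30.7 to 54.8 ± 9.70 CPM and the elongation factor gene AFF4 from 89.2 ± 5.36 to 37.2 ± 9.84 CPM (edgeR adjusted p = 0.0101 and 0.0106). In NCI-H1688 WDR5, a subunit of MLL complexes, fell from 27.4 ± 2.26 to 19.5 ± 0.212 TPM (limma adjusted p = 0.0334). The other 19 activators were not called there.

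Retinoic acid genes, whose product induces the low-numbered end of the clusters, had 2 rises and 0 falls of 12 tested in NCI-H146, where 17.1% of all genes were called. DHRS3, an enzyme of retinal reduction, rose from 3.54 ± 0.331 to 13.7 ± 1.51 CPM and the receptor gene RARG from 40.1 ± 0.919 to 108 ± 20.8 CPM (SD, n = 2 each; edgeR adjusted p = 0.00372 and 0.00539). In NCI-H1688 2 of 11 rose and 1 fell, with 16.0% of all genes called. The retinol dehydrogenase gene RDH10 rose from 7.93 ± 0.166 to 14.7 ± 0.719 TPM (limma adjusted p = 0.0132). The carrier gene CRABP2 rose from 0.801 ± 0.192 to 4.50 ± 0.643 TPM (limma adjusted p = 0.0172). With a control mean below 1 TPM, CRABP2 passed the filter through the labelled knockdown libraries alone, so a rise was built into its being tested. ALDH1A3, which makes retinoic acid, fell from 71.9 ± 1.38 to 57.0 ± 4.14 TPM (limma adjusted p = 0.0481). Calls on these lists in NCI-H1688 rest on all 4 libraries, since without any single library between 0 and 24 of all genes were called, and in NCI-H146 among the regulators named above RYBP and DHRS3 passed without control replicate 3 and none without control replicate 2. With all libraries kept, ALDH1A3, ATP5MC1, LNPK, MEIS1, PCGF6 and WDR5 also missed the limma threshold in NCI-H1688 with a filter of 0.1 TPM, with no filter and without a trend, and with no filter RDH10 alone of the 10 called genes named for that line passed. ALDH1A3 and MEIS1 missed it with quantile normalization, and ALDH1A3 and LNPK without mitochondrial genes. Where missed, the limma adjusted p of the 6 genes named first ranged from 0.0541 for WDR5 to 0.131 for MEIS1. Without a trend CALCOCO1 and TGIF1 missed the threshold too (limma adjusted p = 0.0668 and 0.0609).

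Caudal-type and ParaHox genes, relatives of the HOX clusters, separated the lines. CDX2, the intestinal master gene that activates posterior HOX genes in the embryo, measured 3625 and 3063 CPM in the NCI-H146 controls and 3039 and 3024 CPM after KLF9 shRNA. It took 0.288% to 0.349% of all counts and ranked 14 to 22 among all genes of a library, and it was not called (log2 fold change -0.14, edgeR adjusted p = 0.834). PDX1, a pancreas and duodenum factor gene, measured 131, 98.1, 102 and 84.3 CPM in the same order of libraries. In NCI-H1688 both controls had CDX2 at 0, and it reached no more than 0.246 TPM elsewhere, and PDX1 at no more than 0.462 TPM. The line with HOXD and HOXC12 RNA is thus also the line with CDX2 RNA, a coincidence in 2 lines that no test can address. Other high-numbered HOXC genes, such as HOXC10, were measured in both lines.

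Markers of other cell types moved with the groups in NCI-H146 and are given beside the HOX results, in which their part was not tested. The summed neuroendocrine markers were 7.68 to 10.0 CPM in the controls and 24.04 to 24.46 CPM after KLF9 shRNA. CHGA, CHGB and SYP were called higher of 3 tested. CHGA, with 3 and 9 control counts, passed the filter on low counts through the KLF9 shRNA libraries alone, so its direction was built in. Below that filter, NEUROD1 had 9 and 11 counts in the controls and 6 and 2 after KLF9 shRNA. NCAM1, also below it, had 3 and 7 and then 11 and 8. The fibroblast list was at 83.3 to 134 CPM in the controls and 59.0 to 72.6 CPM after KLF9 shRNA, with COL1A1 called lower of 4 tested, COL3A1 at 24.3 to 40.3 CPM in the 4 libraries and COL1A2 and LUM at or near 0. The leukocyte list was at 19.4 to 19.7 CPM in the controls and 11.8 to 13.4 CPM after KLF9 shRNA, with PTPRC at 10.4 to 13.3 CPM and CD68 called lower of 2 tested. The lung lineage list stood at 14.4 to 18.1 CPM in the controls and 9.36 to 10.5 CPM after KLF9 shRNA, with none of 2 tested called. The squamous list was at 2.49 to 2.89 CPM in the controls and 0.749 to 1.15 CPM after KLF9 shRNA, with TP63 called lower, KRT5 and KRT14 at or near 0. The tuft and endothelial lists never exceeded 0.686 CPM.

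In NCI-H1688 the epithelial list went from 2895 to 3022 TPM in the controls to 2002 to 2043 TPM in the labelled knockdown libraries, with CDH1 and CLDN4 called higher and KRT8 and KRT18 lower of 7. The squamous list went from 819 to 839 TPM to 674 to 688 TPM, with TP63 called higher and KRT5 and KRT6A lower of 4. The fibroblast list stood at 12.2 to 14.2 TPM and then 17.8 to 20.4 TPM, with COL1A1 called higher and COL3A1 at 0, and the tuft list at 2.23 to 2.68 TPM and then 4.28 to 4.32 TPM with neither of 2 tested called. No member of the neuroendocrine and endothelial lists was tested, so none could be called. Of the lung lineage list 2 members were tested and of the leukocyte list 1, and none of these was called.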

How the data were processed

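RNA-seq of 8 libraries from 2 cell lines was analysed, 2 libraries in each of 4 groups. For NCI-H146 the authors deposited raw read counts per gene, and for NCI-H1688 the authors deposited TPM values. Per the submitters' processing notes the build was GRCh38 (hg38), and the tools listed were STAR (2.5.1) and DESeq2, with no role given. The counting tool, its strand setting and the annotation release are not given in the sources used here, so reads of overlapping or antisense genes cannot be told apart.

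Counts were scaled by TMM, filtered with filterByExpr and tested with edgeR 4.0.16 by the quasi-likelihood test. TPM values were tested as log2(TPM + 1) with limma 3.58.1 (trend), over gene names with a mean of at least 1 TPM, keeping for each name the row with the highest mean. P-values were adjusted by Benjamini-Hochberg over all genes tested, and genes under 0.05 were called. Exon lengths, coordinates and overlaps came from GENCODE 29. Promoter windows came from RefSeq on GRCh38.p14. Alternatives included DESeq2 1.42.0, limma-voom, other scalings, filters and pseudocounts, and leaving out each library. Total counts of NCI-H146 were 15406264 to 16109803 per library. The read depth behind the TPM values is unknown, so they carry no counting interval. Limits from counts of 0 cover counting error only.

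Tested HOX genes are given by library, and up to 3 called genes of each companion list are named by lowest adjusted p, with others of the lists named after their values were seen. The members and lists were chosen with earlier results of these data known. Results of a few genes are not reported here. The scripts were tested on simulated data.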

Additional observations from a re-analysis of the deposited data

Results flagged for a closer look

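For 5 HOX genes tested in both lines, all libraries labelled KLF9 knockdown lay to one side of the controls in NCI-H146 and to the other side in NCI-H1688. They are 5 of 14, and of all 10773 genes tested in both lines 26.3% did so. The values are log2 fold changes in NCI-H146 and differences of log2(TPM + 1) in NCI-H1688. HOXA11 stood at 1.26 and -0.46, HOXB6 at 0.37 and -0.47, HOXC4 at -1.16 and 0.30, HOXC6 at -0.71 and 0.40, and HOXC11 at -0.29 and 0.42. The difference between the lines was not tested, and of these 10 values only that of HOXC4 in NCI-H146 passed its own test. The direction of HOXC4 in NCI-H1688 was fixed by the filter of 1 TPM, which its controls did not reach.

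Among the companion and marker genes, 3 were called in both lines with opposite signs. ATP5MC1 stood at 1.39 and -0.44, COL1A1 at -1.55 and 0.49, and TP63 at -1.70 and 0.54. These differences were not tested either. KLF9 RNA itself was lower in the labelled libraries of NCI-H146 and higher, without passing the test, in those of NCI-H1688. The filter of 1 TPM fixed that last direction, because both KLF9 controls lay below it.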

How the results depend on the processing

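In NCI-H146, 1 HOX gene was called with no filter on low counts and 2 to 4 under the other fits that kept all libraries, with 1 called higher, HOXD12, with DESeq2 size factors. DESeq2 did not call HOXA3 (adjusted p = 0.0740). Some log2 fold changes near 0 changed sign, HOXA7 to -0.028 with limma-voom, and with DESeq2 size factors and with DESeq2 HOXA10 to 0.0015 and 0.0019, HOXA13 to 0.010 and 0.010 and HOXA10-AS to 0.011 and 0.011. Leaving out each library gave 0 to 11 called HOX genes, 51 to 5026 called genes in all and a HOX median of -0.48 to -0.063. The same ranges were -0.44 to 0.41 for HOXA7, -0.47 to 0.53 for HOXA9, -0.27 to 0.21 for HOXA10, -0.23 to 0.19 for HOXA13, -0.30 to 0.20 for HOXB4, -0.22 to 0.72 for HOXB5, -0.81 to 0.036 for HOXC8, -0.85 to 0.35 for HOXC10, -0.35 to 0.16 for HOXD1, -0.11 to 0.39 for HOXD11, -0.39 to 0.28 for HAGLR, -0.98 to 1.13 for HOXA-AS3 and -0.29 to 0.23 for HOXA10-AS. With 1 library left in a group, it is assumed to vary like the other group. The HOXA share of the control sum was 10.1% with lengths of the longest coding transcript, a setting chosen after seeing the data.

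In NCI-H1688, 0 HOX genes were called under every setting run. Of all genes, 2366 were called, 1550 with a mean of at least 0.1 TPM, 943 with no filter, 834 with limma without a trend and 1218 with a replicate block. Deviations of libraries with the same replicate number correlated at -0.0051 over 14754 genes. Resting on a single difference within each group, this value cannot decide whether those libraries share a culture or preparation. With the block, 3 of 10 called companion genes stayed called. In NCI-H146 the groups share a single number, and no paired analysis was possible. Quantile normalization moved the HOX median to -0.026, HOXA2 to -0.038, HOXA6 to -0.042, HOXC13 to -0.015 and HOXA11-AS to -0.023. Leaving out each library gave 0 to 24 called genes and a HOX median of -0.035 to 0.16. The ranges were -0.11 to 0.32 for HOXA2, -0.41 to 0.018 for HOXA5, -0.091 to 0.27 for HOXA6, -0.082 to 0.34 for HOXA10, -0.31 to 0.017 for HOXB7, -0.41 to 0.19 for HOXC9, -0.10 to 0.16 for HOXC10, -0.026 to 0.23 for HOXC13, -0.035 to 0.16 for HOXA11-AS and -1.09 to 0.56 for HOXC-AS1. The cause of these changes was not tested.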
